A study of Mus musculus with 6 samples.

Results

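The Lpl and Fabp5 cells were 121 of 22163 cells kept from 6 mouse rhabdoid tumors, and they were chosen by measured values. A cell was taken when it had at least 200 genes, at most 25% mitochondrial UMIs, at least 2 UMIs of Lpl, at least 5 of Fabp5 and at least 1 of Tyrobp, fewer than 20 UMIs of C1qa, C1qb and C1qc per 10000, and fewer than 2 of the 3 fusion genes Atp6v0d2, Ocstamp and Dcstamp. A UMI (unique molecular identifier) marks an mRNA molecule that was captured. The levels of these 9 genes are therefore a description, and no test is drawn from them. Of the 121 cells, 106 came from MYC spinal tumor 1232 and 15 from eRT 1148.

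Single-cell RNA sequencing had been done on 3 MYC spinal tumors, from mice 1172, 1177 and 1232, and on 3 extracranial rhabdoid tumors (eRT), from mice 1148, 568 and 593. All 6 mice were Smarcb1 fl/fl, and a single tamoxifen dose of 50 mg/kg to the pregnant mother at day 6.5 post coitum induced the loss of Smarcb1, a subunit of the SWI/SNF chromatin remodeler. Mice 1172, 1177, 1232 and 1148 carried Rosa26-creERT2, whose promoter is active in all tissues, and mice 568 and 593 carried Sox2-creERT2, which acts in Sox2-positive cells. The mice were 19, 26 and 17 weeks old in the MYC spinal group, and 17, 29 and 22 weeks old in the eRT group, whose tumors lay in a gland, the jaw and the shoulder. No control tissue without tumor was analysed here. The kept cells held 3841706 to 26184224 UMIs per tumor, with medians of 916 to 5211 UMIs per cell. Each tumor is 1 library from 1 animal, so the tumor was the replicate throughout.

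Lipoprotein lipase, the product of Lpl, is secreted and frees fatty acids from the triglycerides of circulating lipoproteins. Fatty acid binding proteins such as Fabp5 carry these fatty acids inside the cell, where they are burned, stored in droplets or passed to nuclear receptors. Macrophages that take up much lipid are known for high Trem2, Gpnmb, Cd9, Lipa and Apoe. Tyrobp encodes a signaling adaptor of myeloid cells, and C1q, the first component of complement, marks many tissue macrophages. Osteoclasts, the bone-resorbing cells, arise from myeloid precursors under Csf1 and Rankl, switch on Nfatc1, and fuse with the help of Dcstamp, Ocstamp and Atp6v0d2.

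The cells were read against the other myeloid cells of the same tumors. Complement-high macrophages had at least 20 C1q UMIs per 10000 and fewer than 2 fusion genes, and numbered 1495 in mouse 1232 and 1018 in mouse 1148. Osteoclast-like cells had at least 2 fusion genes, and numbered 1576 and 592. Genes that run with C1q or with the fusion genes had to differ across these gates, and the differences below have to be read with that in mind. T cells, 58 in mouse 1232 and 16 in mouse 1148, are given beside them as cells of another lineage. T cells were no blank for every gene, since in mouse 1172, which had 0 osteoclast-like cells, T cells thinned to 2000 UMIs had Acp5 in 106 of 352 cells (30.1%), Nfatc1 in 6.25% and Car2 in 5.68%, and Ctsk and Mmp9 in none. Levels are given as CPM, the UMIs of a gene counted over every cell of that kind in the tumor, per 1000000 UMIs of these cells.

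The data did not bear out a name as lipid-handling cells. Genes of lipid uptake, storage, burning and synthesis outside the gate were not raised as a group. Several markers of lipid-laden macrophages were lower than in the complement-high macrophages, but genes that run with C1q had to differ there. Against the osteoclast-like cells, 3 of 13 genes of lipid-associated macrophages were higher and 1 lower. Of all genes 4.17% were higher and 6.25% lower in that comparison. Beyond the gate the cells carried osteoclast genes at a level between the macrophages and the osteoclast-like cells, and MHC class II genes far under the macrophages. Neither was particular to them in mouse 1232. Cells there just outside the cuts on Lpl and Fabp5 had more Acp5, Ctsk and Mmp9 than the gated cells. Their Cd74 was at 3456 to 5597 CPM, against 4394 in the gated cells. Mouse 1148 did not repeat the order of the osteoclast genes. Nrp2 was raised over the macrophages, but not over the osteoclast-like cells or over cells just outside the gate of mouse 1232. Cell cycle genes were higher than in the osteoclast-like cells. Their rise over the macrophages mostly did not pass with macrophages of like depth or by DESeq2. The cells are therefore named here by the genes that chose them. Of the 5 genes given as their markers, Lpl and Fabp5 were part of the gate, Nrp2 and Gstt1 were higher than in the macrophages, and Pltp was not. In mouse 1148 all 5 UMIs of Gstt1 came from a single cell.

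For 3 genes that the results turn on, the promoter is shown from 250 bases before to 50 bases after the transcription start. They are Nrp2 and Gstt1, which passed the test against the macrophages, and Ctsk, which encodes cathepsin K, the collagen-cleaving protease of osteoclasts. The sequences are from RefSeq on GRCm38.p6 and are written 5′ to 3′ on the strand of the gene. Capitals mark the core motif of NFAT factors (GGAAA, read on either strand) and the E-box of the factor MITF (CATGTG, read on either strand).
Nrp2, chr1:62703067-62703366, plus strand: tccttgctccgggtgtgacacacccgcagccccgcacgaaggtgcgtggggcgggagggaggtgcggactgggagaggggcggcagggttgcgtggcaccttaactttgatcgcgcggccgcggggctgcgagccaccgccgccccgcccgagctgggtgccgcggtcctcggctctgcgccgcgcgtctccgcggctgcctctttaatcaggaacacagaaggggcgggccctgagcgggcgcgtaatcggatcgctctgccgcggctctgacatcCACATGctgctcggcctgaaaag
Gstt1, chr10:75797682-75797981, minus strand: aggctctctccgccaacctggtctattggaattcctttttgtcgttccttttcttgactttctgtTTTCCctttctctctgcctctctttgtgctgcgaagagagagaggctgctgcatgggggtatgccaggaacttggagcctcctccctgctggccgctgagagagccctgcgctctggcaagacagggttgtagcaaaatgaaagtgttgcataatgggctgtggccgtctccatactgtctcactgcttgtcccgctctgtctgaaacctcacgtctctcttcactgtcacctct
Ctsk, chr3:95498960-95499259, plus strand: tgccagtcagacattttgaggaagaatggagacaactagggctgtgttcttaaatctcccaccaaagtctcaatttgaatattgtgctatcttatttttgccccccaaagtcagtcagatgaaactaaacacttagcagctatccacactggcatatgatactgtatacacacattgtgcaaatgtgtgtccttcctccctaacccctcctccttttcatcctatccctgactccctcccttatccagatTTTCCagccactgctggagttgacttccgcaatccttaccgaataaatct
The window of Nrp2 held 1 match to the MITF E-box, and those of Gstt1 and Ctsk held 1 match each to the NFAT core. Searched on both strands of 32544 promoters of the same length, the NFAT core was found in 61.5% and the MITF E-box in 14.2%. A match of these letters is a description of the window and shows no binding.

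The cells were found in 2 of the 6 tumors. They made up 106 of 6740 kept cells in MYC spinal 1232, which is 1.57% (exact Clopper-Pearson 95% interval 1.29 to 1.90%). In eRT 1148 they made up 15 of 2143 cells, or 0.700% (0.392 to 1.15%). None was found among 1469 cells of mouse 1172, which allows a share of up to 0.204% at 3 counts, or among 5749 cells of mouse 1177, which allows 0.0522%. None was found among 2042 cells of mouse 568, which allows 0.147%, or 4020 cells of mouse 593, which allows 0.0746%. These limits and the intervals cover counting error only. The mean share was 0.524% ± 0.908 in MYC spinal and 0.233% ± 0.404 in eRT (SD, n = 3 each). The difference of -0.291 percentage points was smaller than the spread between tumors (exact permutation test over the 6 tumors, two-sided, p = 1, where 0.1 is the smallest p that the design allows). The share was decided by mouse 1232, without which the difference turned to 0.233 points.

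**Figure D1:**
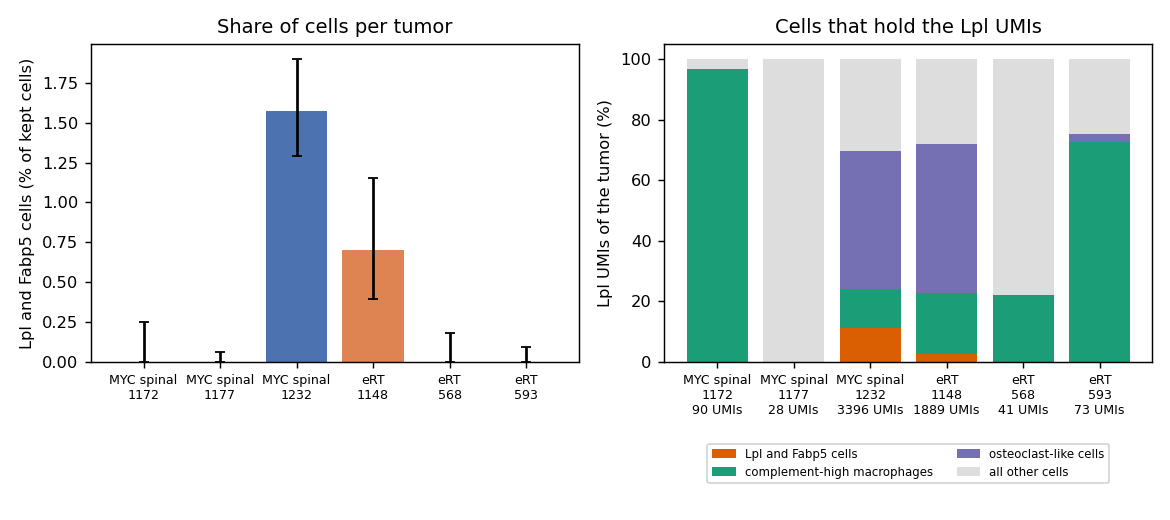
Left, Lpl and Fabp5 cells as a percentage of kept cells in each tumor, with exact 95% binomial intervals, blue for MYC spinal and orange for eRT. Right, the percentage of all Lpl UMIs of a tumor held by each kind of cell, with the number of UMIs under each bar. Only MYC spinal 1232 and eRT 1148 have a bar on the left, and osteoclast-like cells hold 45.7 and 49.2% of Lpl UMIs in these tumors.

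The gate counts UMIs, and so it takes cells more easily where libraries are deep. The median kept cell had 3200 UMIs in mouse 1232 and 5211 in mouse 1148, against 916 to 2288.5 in the other 4 tumors. With every cell thinned to 2000 UMIs, 35 of 5318 cells of mouse 1232 still passed (0.658%), and none of 1992 cells of mouse 1148 did, which allows 0.151%. No thinned cell passed in the other 4 tumors. Of the 121 cells, those of mouse 1232 had 1791 to 9927 UMIs with a median of 4170, and those of mouse 1148 had 5359 to 12682 with a median of 8177. They were thus deeper than the complement-high macrophages, at medians of 2290 and 4260, and close in depth to the osteoclast-like cells, at 4877.5 and 8050.

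Most Lpl lay outside the gated cells. Lpl UMIs numbered 3396 in mouse 1232 and 1889 in mouse 1148, and 28 to 90 in each of the other 4 tumors. The gated cells held 11.2% of them in mouse 1232 and 2.70% in mouse 1148. In the same tumors the osteoclast-like cells held 45.7 and 49.2%, and the complement-high macrophages 12.7 and 20.1%. The 2 tumors with gated cells were also those with osteoclast-like cells, of which the others had 0, 0, 2 and 5.

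Successive steps of the gate show what it leaves out. In mouse 1232, 789 cells had at least 2 UMIs of Lpl, and 235 of these had at least 5 of Fabp5 and also had Tyrobp. Of the 235, 47 were set aside for high C1q and 82 for at least 2 fusion genes. In mouse 1148 the numbers were 429 and 37, of which 9 were set aside for C1q and 13 for fusion genes. In mouse 1172, 3 cells passed the cuts on Lpl, Fabp5 and Tyrobp, and all 3 were high in C1q. No cell of mice 1177, 568 or 593 had both 2 Lpl and 5 Fabp5 UMIs.

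Many cells lay close to a cut. In mouse 1232, 47 of the 106 cells had exactly 2 Lpl UMIs, and 88 cells just outside had 1. In mouse 1148, 5 had exactly 2 Lpl UMIs and 3 just outside had 1. Exactly 5 Fabp5 UMIs were seen in 14 and 4 of the cells, while 20 and 8 cells just outside had 4. For C1q, 17 and 2 of the cells lay at 10 to 20 UMIs per 10000, and 12 and 1 just outside lay at 20 to 40. A single fusion gene was detected in 41 of the 106 cells (38.7%) and in 9 of the 15 (60.0%), and just outside, with 2 such genes, lay 53 and 6 cells. The gate thus cut through a range of cells and did not fall in a gap.

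The gate genes themselves, given as a description, ran as follows. Lpl stood at 796 CPM in the gated cells of mouse 1232 and 401 in mouse 1148, with a median of 3 UMIs per cell in both and ranges of 2 to 15 and 2 to 7. In the macrophages Lpl was at 108 and 80.3 CPM, and in the osteoclast-like cells at 188 and 189. Fabp5 was at 2914 and 842 CPM in the gated cells, with medians of 9 and 6 UMIs per cell. Macrophages carried Fabp5 at 1141 and 135 CPM, and osteoclast-like cells at 465 and 125. Both genes had more CPM in the gated cells of mouse 1232, which were shallower than those of mouse 1148. With a fixed minimum of UMIs a shallower cell passes only at a higher CPM. Fabp5 also had more CPM in mouse 1232 in the macrophages and osteoclast-like cells, which had no cut on Fabp5. The cause of these differences was not tested. C1q, summed over its 3 genes, had medians of 1.79 and 4.40 UMIs per 10000 in the gated cells, with highest values of 19.4 and 12.1. Tyrobp was at 2312 and 2116 CPM, under the 3270.0 and 3310.5 of the macrophages.

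Smarcb1, the gene that the mice delete on induction, was detected in the gated cells of both tumors. It was at 52.3 and 86.5 CPM, against 55.4 and 71.7 in the macrophages and 31.9 and 45.5 in the osteoclast-like cells, and neither difference passed edgeR's quasi-likelihood test (adjusted p = 0.912 and 0.293).

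Markers of other cells were mostly at or near 0. Over 6 markers of T cells the gated cells of mice 1232 and 1148 summed to 4.18 and 7.87 CPM, over 5 of B cells to 2.09 and 0, and over 4 of NK cells to 2.09 and 0. Plasmacytoid dendritic cell, adipocyte and Schwann cell markers had no UMI in either tumor. The 8 alveolar macrophage markers summed to 2.09 and 0 CPM, with Pparg, the receptor that defines those lipid-clearing cells, at 0 in both. The 7 fibroblast markers summed to 43.9 and 0 CPM, against 49.6 and 9.73 in the macrophages, and the endothelial markers to 8.36 and 39.3. Progenitor and mast cell markers summed to at most 4.18 CPM. Neutrophil markers were the exception, at 1097 and 94.4 CPM, yet they were also at 1660 and 209 in the macrophages and at 282 and 134 in T cells. The highest Scrublet scores for doublets fell on 5 of the 106 cells (4.72%) and on none of the 15, compared with 4.55 and 1.38% of the macrophages and 8.95 and 1.35% of the osteoclast-like cells. Scrublet marked too few cells to have worked, so these shares say little of doublets. Cells with at least 2 genes of another lineage numbered 2 of 106 and 0 of 15.

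Osteoclast genes were the clearest difference from the macrophages on the upper side. Acp5, tartrate-resistant acid phosphatase, stood at 2320 and 3312 CPM in the gated cells of mice 1232 and 1148, at 613 and 854 in the macrophages, and at 10486 and 10741 in the osteoclast-like cells. Ctsk stood at 454 and 1361 CPM, between 168 and 259 in the macrophages and 7950 and 11573 in the osteoclast-like cells. Mmp9, a matrix metalloprotease of osteoclasts, stood at 362 and 370 CPM, between 139 and 65.3 below and 3331 and 2930 above. In both tumors the gated cells lay between the other 2 kinds for each of these genes. Nfatc1, the transcription factor that drives osteoclast formation, was at 163 and 165 CPM against 287 and 272, with 43.6 and 28.1 in the macrophages. Car2, carbonic anhydrase, was at 132 and 62.9 CPM, between 19.4 and 8.25 in the macrophages and 646 and 263 in the osteoclast-like cells.

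By edgeR's quasi-likelihood test on the summed UMIs, with the tumor as a block and Benjamini-Hochberg adjustment, Acp5 was higher than in the macrophages by 1.77 ± 0.14 on the log2 scale (SE, 2 tumors, adjusted p = 9.92e-34). Ctsk was higher by 1.74 ± 0.15 (edgeR adjusted p = 5.27e-28), Mmp9 by 1.64 ± 0.18 (6.63e-17), Nfatc1 by 1.98 ± 0.27 (1.26e-11) and Car2 by 2.66 ± 0.33 (1.37e-13). Of 6 osteoclast markers tested, 5 were higher than in the macrophages and none lower, against 3.87% higher and 8.85% lower among all 8807 genes tested. Tcirg1, a proton pump subunit, did not pass (0.37 ± 0.24, edgeR adjusted p = 0.395). The median over the 6 was 1.76, and -0.06 over all genes. The fit rests on 2 tumors and 1 residual degree of freedom. Its small p-values therefore lean on a dispersion, the spread of counts, that is shared over genes. That dispersion was 0.0109 with the tumor as a block and 0.109 without it. The p-values do not measure the spread between tumors. Without the tumor as a block none of the 6 passed, and DESeq2 called 5 of 7. The same markers were lower than in the osteoclast-like cells, 8 of 9 tested, with a median of -3.29, or -2.12 with genes at 0 set at their limit, where 4.17% of 9006 genes were higher and 6.25% lower. Ctsk was lower by edgeR at -3.80 ± 0.15 (adjusted p = 2.63e-128), Mmp9 at -3.29 ± 0.17 (1.6e-82), Acp5 at -2.12 ± 0.14 (2.41e-50) and Nfatc1 at -0.95 ± 0.21 (0.000117). Since fusion genes defined the osteoclast-like cells, this direction was set by the gate.

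Some osteoclast markers were absent. Calcr, the calcitonin receptor, Siglec15 and Itgb3, an integrin of the osteoclast's sealing ring, had no UMI in the gated cells of either tumor. Itgb3 was at 25.9 and 26.5 CPM in the osteoclast-like cells, so that it was at least 4.14-fold lower in mouse 1232 and at least 1.12-fold lower in mouse 1148. Oscar, an immunoreceptor that costimulates osteoclast formation, was at 2.09 and 0 CPM against 117 and 47.3. In all, 3 and 4 of the 10 markers were at 0. Over both tumors, 7 of 9 osteoclast markers lay between the macrophages and the osteoclast-like cells, ties included, while 10.9% of 9646 genes did so. Siglec15 is among the 7 only by a tie at 0. The other kinds were cut on C1q and on fusion genes, so this order was partly set by the gates.

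In droplet data, free RNA can place UMIs of a gene in cells that do not express it. The osteoclast markers summed to 3539 and 5420 CPM in the gated cells, to 1051 and 1345 in the macrophages, and to 510 and 787 in T cells. Thinned to 2000 UMIs, Ctsk was detected in 33.3% of the gated cells of mouse 1232 and in 10 of 28 T cells (35.7%), with 21.4% of macrophages. The share of gated cells with Ctsk was thus no higher than that of T cells, which had no Ctsk in mouse 1172. Nfatc1 was detected in 29 of 105 gated cells (27.6%, 95% interval 19.3 to 37.2%), in 6.99% of macrophages and in 0 of 28 T cells. Mmp9 was found in 27.6% of gated cells, 12.8% of macrophages and 7.14% of T cells, and Acp5 in 89.5% of gated cells, 53.6% of macrophages and 7 of 28 T cells. In mouse 1148, Nfatc1 was found in 7 of 15 gated cells (46.7%, 21.3 to 73.4%) and in 5.43% of macrophages. Before thinning, UMIs of Nfatc1 were in 49.1% of the gated cells of mouse 1232 and 80.0% of those of mouse 1148. Median depths before thinning were 4170 UMIs in the gated cells and 1945 in the T cells of mouse 1232. The intervals of gated cells and T cells of mouse 1232 were apart for Nfatc1 and Acp5, and they overlapped for Mmp9 and Ctsk. The part of free RNA in these levels was not tested.

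The osteoclast genes were spread unevenly over the cells. Summed over Acp5, Ctsk, Mmp9, Nfatc1 and Car2, the gated cells had medians of 26.3 and 33.1 UMIs per 10000, the macrophages 5.63 and 8.92, and the osteoclast-like cells 222 and 249. Acp5 was found in 104 of 106 cells of mouse 1232 and in all 15 of mouse 1148, with medians of 9 and 28 UMIs. Ctsk had a median of only 1 UMI in either tumor, and in mouse 1148 a single cell had 132 and 5 cells held 94.8% of its UMIs. With the cell highest in Ctsk left out of each tumor, an alternative chosen after seeing the data, the same 5 of 6 markers were higher than in the macrophages. The level of Acp5 was also higher in gated cells with 1 fusion gene than in those with none, at 3280 against 1663 CPM in mouse 1232 and 4131 against 1993 in mouse 1148. Nrp2 was at 663 CPM (exact Poisson 95% interval 554 to 788) against 504 (425 to 593) in mouse 1232. In mouse 1148 it was at 370 (248 to 531) against 247 (127 to 431), and the intervals overlapped in both tumors. These last values split the cells by a gate gene and are given without a test.

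**Figure D2:**
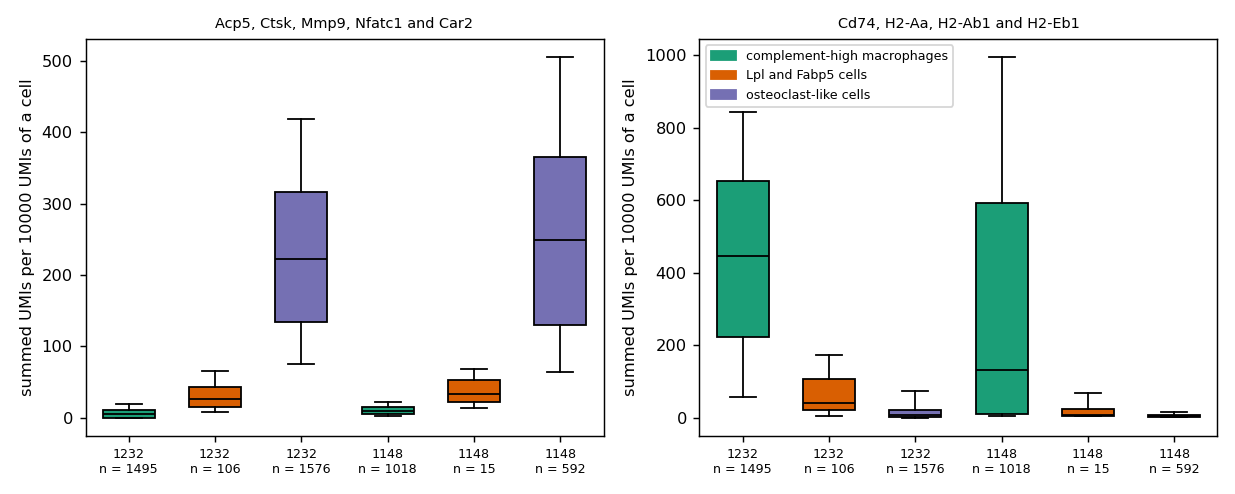
UMIs per 10000 of each cell, summed over 5 osteoclast genes (left) and 4 MHC class II genes (right), for the 3 kinds of cell in MYC spinal 1232 and eRT 1148. Boxes span the quartiles with the median as a line, whiskers reach the 10th and 90th percentiles, and n is the number of cells. On the left the Lpl and Fabp5 cells sit a little above the macrophages and far under the osteoclast-like cells, and on the right they sit far under the macrophages of mouse 1232.

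Beyond the markers, other genes rose over the macrophages. Sdc1, the cell surface proteoglycan syndecan-1, was at 178 and 149 CPM against 34.4 and 41.7, a difference of 2.03 ± 0.26 (edgeR adjusted p = 6.5e-13). Mitf, a transcription factor of the osteoclast and melanocyte lineages, was at 111 and 70.8 CPM against 23.7 and 26.2, up by 1.83 ± 0.32 (edgeR adjusted p = 6.04e-07). Its difference of -0.02 ± 0.25 from the osteoclast-like cells did not pass (edgeR adjusted p = 0.98). Txnrd1, the selenoenzyme thioredoxin reductase, was at 211 and 197 CPM against 65.1 and 41.4, and Tsc22d1, a leucine zipper transcription regulator, at 234 and 480 against 68.3 and 103. Sbsn, suprabasin, was at 148 CPM in mouse 1232 and 15.7 in mouse 1148, against 29.4 and 11.4, so that its rise came mostly from mouse 1232. Cd200, an inhibitory surface ligand fixed here as a marker of mature dendritic cells, was at 83.6 and 110 CPM against 11.2 and 5.29, up by 3.25 ± 0.40 (edgeR adjusted p = 7.39e-14). The osteoclast-like cells had still more Cd200, at 304 and 266 CPM. It was the only one of 5 tested markers of mature dendritic cells to pass. Ccl9, a chemokine made by osteoclasts and macrophages, was at 1505 and 1597 CPM, between 416 and 841 in the macrophages and 2927 and 2923 in the osteoclast-like cells.

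**Figure D3:**
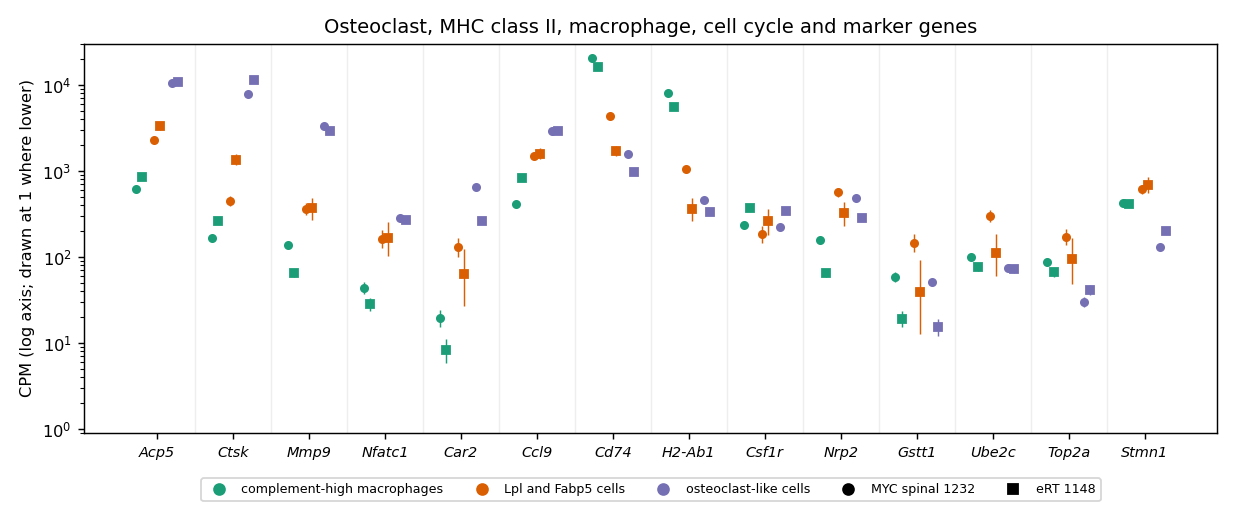
CPM on a log axis for osteoclast, chemokine, MHC class II, macrophage, marker and cell cycle genes in the 3 kinds of cell, circles for MYC spinal 1232 and squares for eRT 1148, with exact 95% Poisson intervals on the summed UMIs. From Acp5 to Ccl9 the Lpl and Fabp5 cells lie between the other 2 kinds in both tumors, and for Cd74 and H2-Ab1 they lie under the macrophages.

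MHC class II genes, which present antigen to helper T cells, were lower than in the macrophages throughout. All 8 tested passed, where 8.85% of all genes were lower. Their median was -3.43, or -3.37 with the genes at 0 set at their limit. Cd74, the invariant chain, was at 4394 and 1723 CPM against 20593 and 16187, a difference of -2.85 ± 0.15 (edgeR adjusted p = 2.53e-75). H2-Ab1 was at 1060 and 362 CPM against 8057 and 5557, a difference of -3.45 ± 0.16 (edgeR adjusted p = 3.6e-97). Ciita, the factor that turns these genes on, had no UMI in the gated cells and was at 20.2 and 7.82 CPM in the macrophages, at least 3.22-fold lower in mouse 1232. Against the osteoclast-like cells, 4 of 6 tested class II genes were higher, among them Cd74 by 0.99 ± 0.14 (edgeR adjusted p = 4.25e-10) and H2-Ab1 by 0.60 ± 0.17 (0.00686). Of all genes 4.17% were higher in this comparison. The count of class II genes was 1 of 8 with DESeq2 and 1 of 6 with a looser gate. Per cell the 4 main class II genes had medians of 41.3 and 6.24 UMIs per 10000, against 447 and 131 in the macrophages and 7.03 and 4.24 in the osteoclast-like cells. The gated cells of mouse 1148 were thus close to its osteoclast-like cells, while those of mouse 1232 lay above.

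Macrophage genes outside the gate were lower as well. Of 11 macrophage markers tested, 8 were lower than in the complement-high macrophages and none higher, where 8.85% of all genes were lower. Adgre1, which encodes the F4/80 antigen, was at 2.09 and 0 CPM against 45.4 and 71.9. Apoe, a lipid carrier, was at 516 and 621 CPM against 3894 and 9227, a difference of -3.50 ± 0.16 (edgeR adjusted p = 2.57e-100). Csf1r, the receptor for the growth factor of both lineages, fell less, at 184 and 260 CPM against 235 and 371 (-0.57 ± 0.18, edgeR adjusted p = 0.0177). Cd68 did not pass, at 466 and 897 CPM against 557 and 888. Cd68 was lower than in the osteoclast-like cells, where no other macrophage marker of the 8 tested passed. The macrophages were gated on C1q, and these genes run with C1q in macrophages.

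The genes that fell most against the macrophages were of the same sort. Ccl12, a monocyte chemokine, was at 2.09 and 15.7 CPM against 579 and 1645, a difference of -7.48 ± 0.33 (edgeR adjusted p = 1.16e-107). Pld4, a phospholipase-like exonuclease of the lysosome, was at 2.09 and 7.87 CPM against 157 and 481, and Sepp1, selenoprotein P, at 4.18 and 7.87 against 174 and 445. Tmem119, best known from microglia and osteoblasts, was at 2.09 and 0 CPM against 90.5 and 102. Plbd1 and Rab3il1 were each at 0 in mouse 1148, at least 8.33-fold and 7.11-fold lower there. Slamf8, Cyp4f18, Slc15a3 and Pou2f2 had no UMI in either tumor. Slamf8, a receptor of the SLAM family, was at least 8.35-fold lower in mouse 1232 and 2.05-fold in mouse 1148, and Cyp4f18, which inactivates leukotriene B4, at least 3.02-fold and 5.34-fold. For Slc15a3, a lysosomal peptide transporter, the limits were 5.96-fold and 1.93-fold, and for the transcription factor Pou2f2 3.58-fold and 2.76-fold.

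Monocyte genes were no higher. Ly6c2 had no UMI in the gated cells, and Ccr2, the receptor by which monocytes leave the marrow, was at 8.36 and 15.7 CPM against 99.5 and 188 in the macrophages. Of 8 monocyte markers tested against the macrophages 7 were lower, and of 5 tested against the osteoclast-like cells none passed. The shares of all genes that were lower were 8.85% against the macrophages and 6.25% against the osteoclast-like cells. Mouse 1232 also held 37 cells gated as Ly6c2 monocytes, too few tumors for a test. Those cells had Acp5 at 1096 CPM, Nrp2 at 203, Pltp at 18.4 and Gstt1 at 0, where the gated cells had 2320, 569, 234 and 146. Cd74 was alike in value, 4144 CPM in the monocytes and 4394 in the gated cells. Dendritic cell markers fell against the macrophages, 2 of 3 tested for cDC1 and 3 of 3 for cDC2. The counts were 1 of 2 and 0 of 1 against the osteoclast-like cells. Batf3, Epcam, Clec10a and Mgl2 had no UMI in the gated cells of mouse 1148. Its macrophages had them at 5.29 to 16.9 CPM, under the 23.6 CPM of 3 UMIs, so that tumor shows no fall. With genes at 0 set at their limit, the cDC2 median against the macrophages moved from -8.33 to -0.83. Both microglia markers tested fell against the macrophages, and the 1 tested against the osteoclast-like cells did not pass.

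Receptors and chemokines followed the macrophage genes. Of 13 growth factor and chemokine receptors tested, 8 were lower than in the macrophages and none higher. Among all genes 8.85% were lower and 3.87% higher than in the macrophages. Against the osteoclast-like cells 6.25% were lower and 4.17% higher. Cx3cr1, the fractalkine receptor, was at 8.36 and 0 CPM against 143 and 232. Il13ra1 and Il4ra, chains of the receptors for interleukins 13 and 4, were also lower. Tnfrsf11a, which encodes the Rankl receptor RANK, was at 37.6 and 62.9 CPM against 26.4 and 38.1, and did not pass (edgeR adjusted p = 0.586). Lower than in the osteoclast-like cells were 4 of 13 receptors, namely Ccr1, Csf2rb, Tgfbr1 and Tgfbr2. Of 14 chemokines and cytokines, 11 were lower than in the macrophages and Ccl9 alone was higher. Il1b was at 56.4 and 0 CPM against 450 and 140, and Cxcl2, a chemokine for neutrophils, at 391 and 39.3 against 2138 and 564. Ccl3, Cxcl2 and Cxcl16 were higher than in the osteoclast-like cells. Complement genes other than C1q were lower than in the macrophages, 4 of 4 tested, and 2 of 3 were higher than in the osteoclast-like cells. C5ar1, the anaphylatoxin receptor, was at 41.8 and 62.9 CPM, between 217 and 464 in the macrophages and 8.12 and 17.3 in the osteoclast-like cells.

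Lipid genes outside the gate were tested next, as 8 lists of 104 genes. Against the macrophages 81 of these genes could be tested, and 0 were higher and 7 lower by edgeR (8.64% lower, against 8.85% of all genes). DESeq2 also called 0 of 91 higher, and edgeR without TMM called 2 of 81. At the share of all genes, the lower ones are no result about lipid genes. The median of the 81 genes was -0.31, and -0.06 over all genes. Against the osteoclast-like cells 3 of 83 were higher and 10 lower, with a median of -0.49 against -0.07 over all genes. Of all genes 4.17% were higher and 6.25% lower there. Unlike against the macrophages, the share of lipid genes that were lower was thus above that of all genes. The share that were higher, 3.61%, was not. Whether the lower share differs from that of all genes was not tested in this comparison. Depth limits this comparison, since 3 UMIs amount to 6.27 CPM in the gated cells of mouse 1232 and 23.6 in those of mouse 1148.

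The genes around lipoprotein uptake did not move with Lpl. Of 9 tested, Msr1, a scavenger receptor for modified lipoproteins, was lower than in the macrophages, at 125 and 118 CPM against 189 and 280 (-0.95 ± 0.21, edgeR adjusted p = 0.000105), and none was higher. Cd36, the fatty acid and lipoprotein scavenger receptor, had no UMI in mouse 1232 and 1 in mouse 1148. Vldlr, the receptor for very low density lipoprotein, was likewise at 0 and 7.87 CPM. Angptl4, a secreted inhibitor of lipoprotein lipase, had no UMI in either tumor. Pltp, the phospholipid transfer protein that remodels lipoproteins, was at 234 and 283 CPM against 296 and 344, and did not pass (-0.47 ± 0.18, edgeR adjusted p = 0.0578). Pltp was higher than in the osteoclast-like cells, which had 72.5 and 207 CPM, by 0.995 ± 0.20 (edgeR adjusted p = 1.95e-05), and Msr1 by 1.01 ± 0.25 (0.00156). The rise of Pltp was larger in mouse 1232 than in mouse 1148.

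Other fatty acid binding proteins did not accompany Fabp5. Fabp4, its close relative in adipocytes and macrophages, was at 10.5 and 0 CPM against 14.7 and 3.17 in the macrophages. Fabp3 had no UMI. Dbi, the acyl-CoA binding protein, was at 506 and 441 CPM against 622 and 399, and neither this list nor that of PPAR and RXR receptors and targets had a gene that passed against either kind. Plin2, which coats lipid droplets and is a PPAR target, was at 96.2 CPM in mouse 1232 and 299 in mouse 1148, against 151 and 269 in the macrophages (-0.44 ± 0.20, edgeR adjusted p = 0.153). Its 2 tumors thus lay on opposite sides of the macrophages. Of 10 droplet genes tested, Soat1, which esterifies cholesterol, and Bscl2, seipin, were lower than in the macrophages. Plin3 and Hilpda, a droplet protein that inhibits lipolysis, were lower than in the osteoclast-like cells, of 11 tested.

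Of 19 genes of fatty acid burning none passed the test against the macrophages, and their median was 0.07. Acsl1, which activates fatty acids, was at 37.6 and 23.6 CPM against 12.7 and 19.2 (1.07 ± 0.47, edgeR adjusted p = 0.127). Compared with the osteoclast-like cells, Acaa2, Hadhb and Etfa of beta oxidation were lower, 3 of 19, where 6.25% of all genes were lower. Acaa2, for example, was at 62.7 and 110 CPM against 173 and 153. Of the genes of fatty acid synthesis only Scd2, a desaturase, passed, lower against both kinds at 8.36 and 0 CPM. For cholesterol synthesis, 1 of 21 genes was lower than in the macrophages, Pmvk, and 3 of 22 than in the osteoclast-like cells, among them Fdps and Pmvk. Pmvk, phosphomevalonate kinase, was at 43.9 and 47.2 CPM against 88.4 and 60.6 in the osteoclast-like cells. These small counts stand beside 8.85 and 6.25% of all genes that were lower, and nothing particular to these pathways is read from them. Of 9 genes of cholesterol efflux and LXR targets, Abca1 and Apoe were lower than in the macrophages. Against the osteoclast-like cells, of 8 tested, the LXR receptor gene Nr1h3 was higher and Npc2, which carries cholesterol out of lysosomes, lower.

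**Figure D4:**
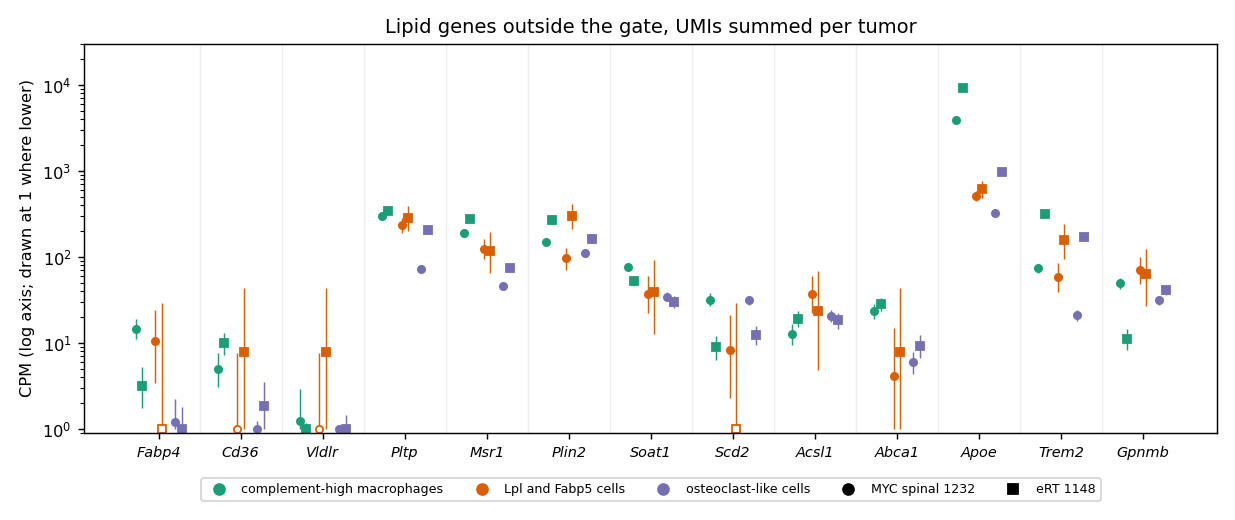
CPM on a log axis for 13 lipid genes outside the gate in the 3 kinds of cell, circles for MYC spinal 1232 and squares for eRT 1148, with exact 95% Poisson intervals and values under 1 CPM drawn at 1, open where the cells had no UMI. The Lpl and Fabp5 cells lie under the macrophages in both tumors for Msr1, Soat1, Abca1 and Apoe, and Fabp4, Cd36 and Vldlr are at or near 0.

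Genes of lipid-associated macrophages were lower than in the complement-high macrophages. Of 15 tested, 9 were lower and none higher, with a median of -0.83. Of all genes 8.85% were lower and 3.87% higher. Genes that run with C1q had to differ here, so this fall was partly set by the gates. Trem2, the lipid receptor that names these cells, was at 58.5 and 157 CPM against 74.1 and 317 (-0.83 ± 0.23, edgeR adjusted p = 0.00518). Spp1, osteopontin, was at 441 and 1566 CPM against 826 and 2514 (-0.96 ± 0.15, 3.29e-09), and 5 of the 15 cells of mouse 1148 held 92.0% of its UMIs there. Gpnmb was at 71.1 and 62.9 CPM against 49.6 and 11.2, and did not pass (edgeR adjusted p = 0.137), nor did Cd9 (0.76) or the lysosomal lipase gene Lipa (0.175). Compared with the osteoclast-like cells, Lgals1, Ctsl and Itgax were higher and Cd63 lower, of 13 tested. The median of the 13 was 0.47, and 4.17% of all genes were higher and 6.25% lower. Lysosomal genes, of which several stand in both lists, were lower than in the macrophages in 14 of 21 cases, among them Lgmn, Man2b1, Grn and Ctss. Lgmn, legumain, was at 146 and 315 CPM against 685 and 1866 (-2.54 ± 0.17, edgeR adjusted p = 2.79e-45). Of the 21, 7 were lower than in the osteoclast-like cells, led by the proton pump subunit Atp6v1a, and Ctss and Ctsl were higher.

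Nrp2 rose over the macrophages in both tumors. Its product, neuropilin-2, is a co-receptor for semaphorins and VEGF-C. Its level was 569 and 323 CPM in the gated cells against 160 and 65.3 in the macrophages, higher by 1.84 ± 0.18 (edgeR adjusted p = 4.27e-23). In the osteoclast-like cells it stood at 481 and 287 CPM, and the difference of 0.04 ± 0.18 did not pass (edgeR adjusted p = 0.951). Nrp2 UMIs were found in 89 of 106 gated cells of mouse 1232 and in all 15 of mouse 1148. Thinned to 2000 UMIs, it was found in 61.0% of gated cells, 23.8% of macrophages, 57.7% of osteoclast-like cells and 3.57% of T cells of mouse 1232. In mouse 1148 these shares were 46.7, 9.93 and 41.0% for the first 3 kinds. The T cells lay far below, and macrophages lay under both other kinds in each tumor. Of 10 neuropilin, semaphorin and VEGF genes tested against the macrophages, Vegfc was also higher, at 18.8 and 47.2 CPM against 2.99 and 3.17, and Nrp1 was lower. Plxnd1, a semaphorin receptor, was the 1 gene of 10 to pass against the osteoclast-like cells, and it was lower. Among all genes 3.87% were higher and 8.85% lower than in the macrophages, and 6.25% lower than in the osteoclast-like cells.

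Gstt1, a theta-class glutathione transferase, was at 146 CPM in mouse 1232 and 39.3 in mouse 1148, against 58.3 and 19.2 in the macrophages and 51.0 and 15.3 in the osteoclast-like cells. It was higher than in both, by 1.14 ± 0.30 (edgeR adjusted p = 0.00232) and by 1.33 ± 0.30 (0.000364). In mouse 1148 all 5 of its UMIs came from a single cell, and in mouse 1232 it was found in 36 of 106 cells. The value of mouse 1148 is thus that of a single cell. Of 19 glutathione and antioxidant genes tested against the macrophages, Txnrd1 and Gsto1 were also higher, and Hmox1 and Prdx1 lower. Hmox1, heme oxygenase, was at 35.5 and 142 CPM against 140 and 474. Against the osteoclast-like cells, of 18 tested, Slc7a11, the cystine importer, was higher along with Gstt1, and Mgst3 was lower. These small counts stand beside 3.87% of all genes higher and 8.85% lower than in the macrophages. Against the osteoclast-like cells the shares were 4.17% and 6.25%. None of 15 glycolysis genes passed against the macrophages, and against the osteoclast-like cells Slc16a3, the lactate exporter, was higher and Aldoa and Pgam1 lower.

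Cell cycle genes were higher than in the osteoclast-like cells, 18 of 18 with a median of 1.72, where 4.17% of all genes were higher. Top2a, the topoisomerase of dividing cells, was at 171 and 94.4 CPM against 30.2 and 41.2, higher by 1.92 ± 0.27 (edgeR adjusted p = 1.31e-10). Mcm3, of the replicative helicase, was at 107 and 94.4 CPM against 17.8 and 25.7. Among the genes with the largest rise against these cells, Mcm7, Mcm6 and the kinetochore gene Spc24 were of the same group. Against the macrophages 7 of 18 were higher and none lower, with a median of 0.55, where 3.87% of all genes were higher. Ube2c, of the machinery that ends mitosis, was at 301 and 110 CPM against 99.2 and 75.7 (1.17 ± 0.21, edgeR adjusted p = 6.97e-07), and Cdk1 at 130 and 110 against 53.9 and 71.3. Mki67 did not pass there, at 83.6 and 39.3 CPM against 44.6 and 43.8. In both tumors 16 of the 18 genes lay above both other kinds, against 19.7% of genes. Against macrophages within the UMI range of the gated cells, 2 of 18 genes passed and 14 were above 0. DESeq2 called 0 of 18, with all 18 above 0.

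Thinned to 2000 UMIs, at least 3 of 9 mitotic genes were found in 38 of 105 gated cells of mouse 1232 (36.2%, 27.0 to 46.1%). The share was 17.1% in macrophages (14.8 to 19.6%), 6.58% in osteoclast-like cells and 12 of 28 in T cells (42.9%). In mouse 1148 it was 4 of 15 (26.7%, 7.79 to 55.1%), against 124 of 957 macrophages and 9.12% of osteoclast-like cells. The interval of mouse 1148 covers the value of its macrophages. Intervals within a tumor cover counting error only, and the T cells, which divide, are no background for these genes.

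**Figure D5:**
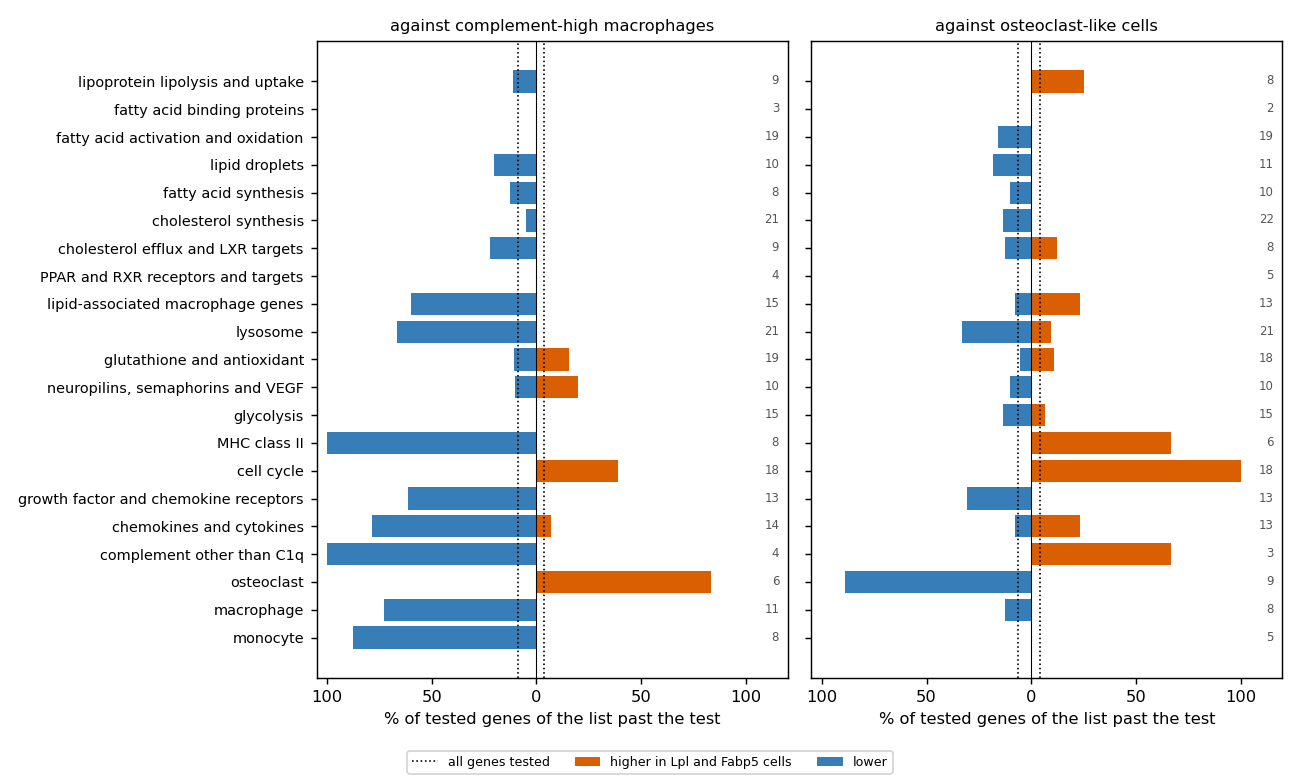
Percentage of tested genes of each list that were higher (orange) or lower (blue) in the Lpl and Fabp5 cells by edgeR's adjusted p, against the complement-high macrophages (left) and the osteoclast-like cells (right), with dotted lines for all genes tested and the number tested at the right edge. MHC class II and osteoclast genes switch sides between the panels, cell cycle genes are higher in both, and no lipid list on the left has an orange bar.

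Several further myeloid genes were high beside the osteoclast-like cells. Lyz2, lysozyme, was at 4847 and 2407 CPM against 563 and 488, higher by 2.55 ± 0.15 (edgeR adjusted p = 7.24e-62), and yet lower than the 12018 and 11008 of the macrophages. Fcgr2b, the inhibitory antibody receptor, was at 132 and 181 CPM against 24.9 and 26.5, and Tgfbi, a matrix protein, at 554 and 1070 against 115 and 231. Gatm, which makes the creatine precursor, was at 75.3 and 299 CPM, between the 160 and 896 of the macrophages and the 11.6 and 68.5 of the osteoclast-like cells. These 4 genes lay between the other 2 kinds in both tumors. On the lower side stood Mt3, a metallothionein, at 10.5 and 7.87 CPM against 1234 and 365, Clcn7, the chloride channel of the resorbing osteoclast, at 2.09 and 7.87 against 58.8 and 52.8, and Cfap45, Fam102a, Hacd4, Myo1d, Pgpep1 and Lat. Of 6 neutrophil markers tested here, Retnlg was higher and Camp and Ngp lower. Retnlg turned to -0.80 without the highest Scrublet scores, and Camp and Ngp turned to 0.63 and 1.13 with the looser gate (Lpl of at least 1 and Fabp5 of at least 3). Of 5 tested against the macrophages, 4 were lower, S100a8, S100a9, Ngp and Camp, of which S100a9 turned to 0.00684 with the looser gate. The endothelial, fibroblast and NK cell lists had no gene past the test.

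Over all genes, 341 were higher and 779 lower than in the macrophages, and 376 were higher and 563 lower than in the osteoclast-like cells. Without TMM scaling the splits were 590 against 613 and 555 against 374, as the median of all genes moved from -0.06 to 0.08 and from -0.07 to 0.10. Of 8420 genes tested in both, 91 were higher than both kinds and 83 lower than both. Another 54 were higher than in the macrophages and lower than in the osteoclast-like cells, and 65 the reverse. Both comparisons share the gated cells, so these counts are not independent.

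Cells just outside the gate were compared next. Within the UMI range of the gated cells, and passing its other cuts, 156 cells of mouse 1232 had at least 5 Fabp5 UMIs and no Lpl. These had Nrp2 at 509 CPM (exact Poisson 95% interval 451 to 571), where the gated cells had 569 (503 to 640). Their Acp5 was at 3059 CPM against 2320, Cd74 at 4541 against 4394 and Gstt1 at 128 against 146. Ube2c was at 219 CPM (182 to 262) in them and 301 (254 to 354) in the gated cells, and these intervals overlapped. A further 190 cells had at least 2 Lpl UMIs and fewer than 5 of Fabp5. In them Nrp2 was at 570 CPM and Acp5 at 3521, while Gstt1 was at 67.8 (49.6 to 90.4) and Ube2c at 97.3 (75.2 to 124), against 301 (254 to 354) in the gated cells. For Gstt1 and Ube2c the intervals of these 190 cells and the gated cells were apart, and for Nrp2 they overlapped. The 82 cells with Fabp5 and a single Lpl UMI had Nrp2 at 651 CPM, Acp5 at 3923 and Cd74 at 3456. Gstt1 was at 197 CPM (150 to 253) in them and Ube2c at 216 (167 to 274). Both intervals overlapped those of the gated cells. The osteoclast genes Acp5, Ctsk and Mmp9 were thus higher in the cells just outside the gate of mouse 1232 than in the gated cells. Acp5 was at 3059 to 3923 CPM in these 3 sets against 2320, Ctsk at 998 to 1769 against 454, and Mmp9 at 534 to 964 against 362, with all intervals apart from those of the gated cells. Cd74 was higher in the 190 cells, at 5597 CPM, and lower in the 82 cells. S100a9, a neutrophil gene, was also higher in all 3 sets, at 721 to 1567 CPM against 393. In mouse 1148, 12 cells with Fabp5 and no Lpl had Nrp2 at 257 CPM (171 to 372), and 87 cells with Lpl and little Fabp5 had it at 168 (140 to 200), against 323 (231 to 438) in the gated cells. There the interval of the cells with little Fabp5 was apart from that of the gated cells. The osteoclast genes did not repeat the order of mouse 1232. In the 12 cells Acp5 was at 1956 CPM against 3312, Ctsk at 303 against 1361 and Mmp9 at 73.4 against 370. All 3 were lower than in the gated cells, with intervals apart. The 87 cells had these genes at 3235, 1370 and 329 CPM, close to the gated cells. Their Cd74 was at 460 CPM against 1723, also the reverse of mouse 1232. Ube2c was at 193 CPM (119 to 295) in the 12 cells and 135 (110 to 164) in the 87. The gated cells of mouse 1148 had it at 110 (60.2 to 185), so the intervals overlapped. Such cells share tumors with the gated cells and give values only.

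The gated cells of the 2 tumors differed in some genes, and with 1 tumor a group there is no test. Arg1, arginase, was at 1180 CPM in mouse 1148 and 14.6 in mouse 1232, a log2 ratio of 6.33 (counting interval 5.26 to 7.67). Cxcl14 was at 1243 CPM in mouse 1148 and 136 in mouse 1232. The same tumors differed in the same direction in the macrophages, at 733 and 12.5 CPM for Arg1 and 1300 and 106 for Cxcl14. On the other side, Cxcl2 was at 39.3 CPM in mouse 1148 and 391 in mouse 1232, S100a8 at 55.1 and 454, H2-Eb1 at 181 and 694, and Ddt at 189 and 650. All 4 were also lower in mouse 1148 in both other kinds of cell. The ribosomal genes Rps2, Rpl21, Rps18-ps3 and Rpl23a differed as well, and they share sequence with many copies, so their counts are uncertain. Of 2597 genes with at least 30 UMIs, 346 had an interval above 0 and 254 one below, a rule set after seeing the data. The tumors differ in site, depth and animal, and these cannot be told apart.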

How the data were processed

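Live cells from 6 tumors, dissociated with Accutase, freed of red cells and sorted as 7-AAD negative, had been sequenced by droplet 3′ RNA sequencing. The authors made the deposited tables of raw UMI counts per gene and cell, with Cell Ranger 2.0.2 and mm10 per the submitters' processing notes, and the tables hold the genes found in at least 3 cells. A cell was kept if it had 200 genes or more and no more than 25% of its UMIs were mitochondrial. Cell names carried no barcodes, so shared barcodes could not be counted, and 0 cells had an identical profile in another tumor.

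UMIs were summed per tumor and kind of cell. Sums were compared with edgeR 4.0.16 in R 4.3.3 (TMM, filterByExpr, quasi-likelihood test, tumor as block, Benjamini-Hochberg threshold of 0.05), which was tested on simulated data, and with DESeq2 1.42.0 as an alternative. Levels are CPM of these sums. The block pairs the kinds because they come from the same animal. Shares were compared by an exact permutation test over tumors. Python 3.11.15 with scipy 1.17.1 and scanpy 1.11.5 was used for gating, intervals and Scrublet. Scrublet marked only 21 of 22163 cells (0.0948%) and so had not worked, and the 843 cells with the highest scores, at 0.8% per 1000 cells, were left out as an alternative. The members and the 18 lists of pathway genes and 19 of cell type markers were chosen with earlier results of these data known. Genes were named by 4 parts of a rule. It took the markers and gate genes, the 10 largest changes of a direction that were called, alike in both tumors and at a mean log2 CPM of at least 5, up to 4 called genes of a list and direction, and defining markers. Other genes named from the lists were chosen after their values were seen. Lists of granulocyte-monocyte progenitors, mast cells, T cells, B cells, alveolar macrophages, plasmacytoid dendritic cells, adipocytes and Schwann cells had no gene that could be tested. Some genes are not reported here.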

Additional observations from a re-analysis of the deposited data

How the results depend on the processing

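Beside the main counts of 1120 genes against the macrophages and 939 against the osteoclast-like cells, DESeq2 called 232 and 253, a looser gate (Lpl of at least 1 and Fabp5 of at least 3) 2063 and 1695, and the fit with no tumor block 43 and 0 by edgeR, with 964 of the latter at an unadjusted p under 0.05. The other settings gave 876 to 1203 and 815 to 1009. Of the named genes, DESeq2 lost 41 of 79 and 33 of 73, and no tumor block lost 64 and 73. With the looser gate 3 genes turned, S100a9 to 0.00684 against the macrophages, and Camp to 0.63 and Ngp to 1.13 against the osteoclast-like cells. Retnlg turned to -0.80 without the highest Scrublet scores. The cause was not tested. Leaving out 1 tumor moved the difference in share between -0.553 and 0.233 points, and it was 0.233 without MYC spinal mouse 1232.

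A stricter gate (Lpl of at least 4 and Fabp5 of at least 10) left 18 and 1 cells and could not be fitted. Leaving out a tumor left no residual degrees of freedom, and the comparisons with monocytes and between eRT and MYC spinal cells had 1 tumor a group, so these were not run. No paired analysis was possible because the tumors of the 2 groups share only a number given in accession order. With 15 cells in mouse 1148, a gene under 23.6 CPM there could not be told from 0.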
